A study of Mus musculus with 6 samples.

Results

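The genes described here are 8 genes of fat cell formation and lipid uptake, which were taken by symbol from a table of 23930 amplicons measured in mouse long bone of E16.5 embryos. They are the transcription factor genes Pparg, Cebpa, Cebpb and Cebpd, the lipid uptake genes Fabp4, Lpl and Cd36, and the adipokine gene Adipoq. RNA came from the shaft of the humerus in 3 knockout samples with the genotype Prrx1Cre; Stat3C/C and in 3 control samples with the genotype Stat3C/+. The controls, which are also called wild type, thus carried 1 conditional Stat3 allele and no Cre, so Cre is present in the knockout group alone. Prrx1Cre acts in limb bud mesenchyme, which gives rise to cartilage, bone, tendon and fat cells of the limb but not to blood cells, endothelium or muscle fibres. Nothing in the labels states that the replicates came from different embryos or litters, so a p-value here covers only the variation among these 6 samples, part of which may be technical.

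Fat cells arise from mesenchymal precursors that can also form bone. In cultured preadipocytes, C/EBP-beta and C/EBP-delta come up first and switch on PPAR-gamma and C/EBP-alpha, which hold each other on and drive the genes of the mature fat cell. Lipoprotein lipase, bound to capillary walls, frees fatty acids from circulating lipoproteins, CD36 takes them up and FABP4 carries them inside the cell. Several of these genes are also used outside fat: CD36 and FABP4 in capillary endothelium and macrophages, CD36 in muscle and platelets, lipoprotein lipase in muscle, and the C/EBP factors in myeloid cells.

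Of the 8 genes, Cd36 was lower in the knockout and no other passed the test in either direction. Pparg and Lpl also had lower means in the knockout, by 29.6% and 13.4%, without passing. Fabp4 and Cebpa had nearly the same mean in both groups. Adipoq, the gene that most specifically marks mature fat cells, was read at most 7 times in any library.

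Each gene was read at 1 short amplicon, and values are RPM, reads at that amplicon scaled to a library total of 1000000. RPM of different genes are not compared, because each amplicon may amplify with its own efficiency. Depth was 9126493 to 11809106 reads in knockout libraries and 11640697 to 13376550 reads in control libraries. A library with 3 reads at an amplicon showed 0.254 to 0.329 RPM in the knockout and 0.224 to 0.258 RPM in controls, taken here as the floor. Of the 8 genes, 7 had a mean of at least 1 RPM and entered a test over 12846 amplicons (limma on log2(RPM + 1), p adjusted by the Benjamini-Hochberg method, threshold 0.05). In that test 16.7% of all amplicons were called, 11.0% lower and 5.71% higher in the knockout, so 1 of 7 tested genes is near the background. Of these calls 34.2% were higher with the deposited scaling, and 54.3% with median-of-ratios scaling, under which none of the 7 passed. With the deposited scaling, the knockout was lower by fold change in 6 of the 7 and in 59.9% of all tested amplicons. The 6 include Fabp4 at -0.01, which was at 0.05 with median-of-ratios scaling. The median log2 fold change of the 7 was -0.28, against -0.06 for all tested amplicons. The median over all tested amplicons was -0.005 with median-of-ratios scaling. The targeted gene Stat3 (chr11:100885098-100939540) read 208, 201 and 170 RPM in knockouts and 211, 201 and 211 RPM in controls (log2 fold change -0.11, limma adjusted p = 0.380). The sources used here do not place its amplicon inside or outside the deleted part, so this level checks nothing about the labels.

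**Figure D1:**
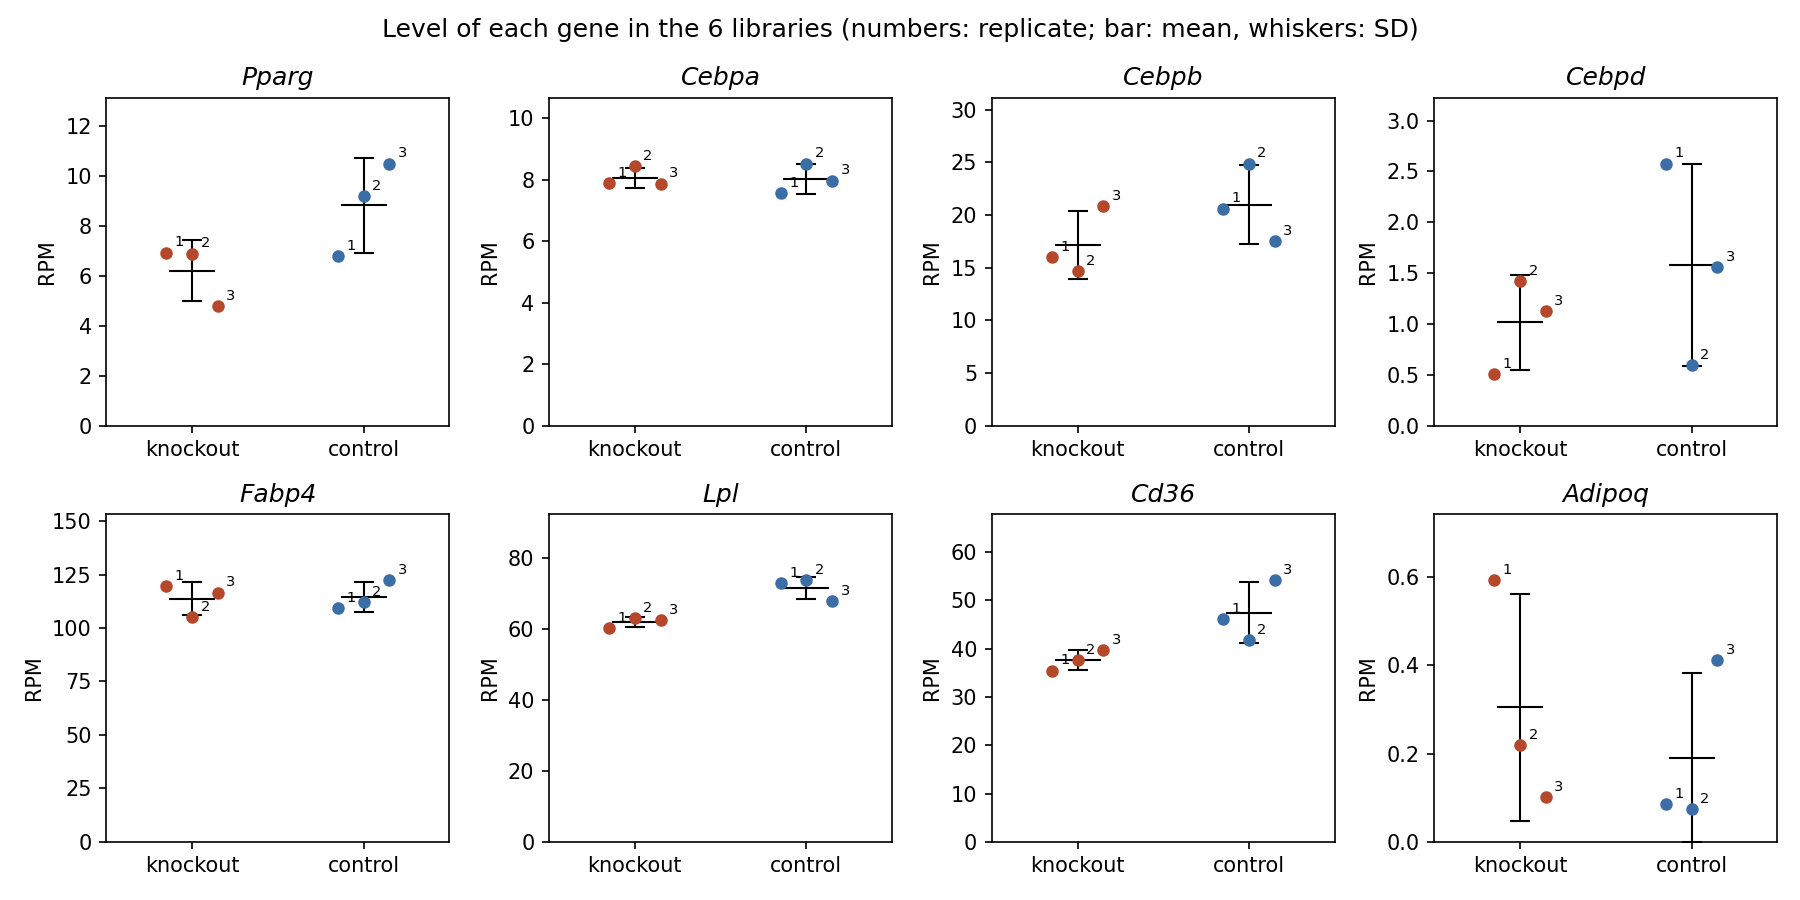
RPM of the 8 genes in each library, with knockout samples in red on the left and controls in blue on the right of each panel, each panel on its own axis from 0. Points are libraries numbered by replicate, the bar is the mean and the whiskers are the SD of 3. The groups are apart for Lpl and Cd36, as for 33.8% of all tested amplicons in either direction, and overlap for the other 6 genes.

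Pparg (ENSMUSG00000000440.12, chr6:115360951-115490399, GRCm38, plus strand) encodes the nuclear receptor required for fat cell formation. It read 6.94, 6.90 and 4.80 RPM in knockout replicates 1 to 3, against 6.79, 9.20 and 10.5 RPM in control replicates 1 to 3. Control replicates 2 and 3 lay above every knockout sample, while control replicate 1 lay just below knockout replicates 1 and 2, so the groups overlapped by this 1 control. The means were 6.22 ± 1.22 RPM in knockouts and 8.83 ± 1.89 RPM in controls (SD, n = 3 each), with a log2 fold change of -0.44 ± 0.18 (SE) that did not pass (limma adjusted p = 0.0862). Its direction held in all 17 alternative settings and it passed in 1 of them, without control replicate 1, the control that overlapped the knockouts (-0.60, limma adjusted p = 0.0441). It was -0.29 without knockout replicate 3 (limma adjusted p = 0.301) and -0.32 without control replicate 3 (limma adjusted p = 0.284). These values rest on 192 reads in the knockout and 330 reads in controls.

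RefSeq (GRCm38.p6) places Pparg starts at 3 sites, and mouse Pparg is known to make a broadly used form and a fat-cell form from different starts. The amplicon's value does not tell them apart. The 250 bases before each start are shown because they differ in composition and in a 6-base letter match. Capitals mark the nuclear receptor half-site AGGTCA or its reverse complement TGACCT.
Pparg start 1, chr6:115360894-115361143: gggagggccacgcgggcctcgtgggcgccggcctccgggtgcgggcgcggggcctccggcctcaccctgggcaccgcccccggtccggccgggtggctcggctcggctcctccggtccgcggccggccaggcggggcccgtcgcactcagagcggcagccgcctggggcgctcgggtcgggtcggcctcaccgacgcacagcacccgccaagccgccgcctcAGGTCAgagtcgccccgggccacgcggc
Pparg start 2, chr6:115362099-115362348: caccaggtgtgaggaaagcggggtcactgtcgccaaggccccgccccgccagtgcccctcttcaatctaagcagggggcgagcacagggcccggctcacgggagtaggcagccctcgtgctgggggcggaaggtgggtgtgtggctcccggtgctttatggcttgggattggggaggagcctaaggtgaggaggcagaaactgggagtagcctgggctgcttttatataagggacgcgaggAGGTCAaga
Pparg start 3, chr6:115421816-115422065: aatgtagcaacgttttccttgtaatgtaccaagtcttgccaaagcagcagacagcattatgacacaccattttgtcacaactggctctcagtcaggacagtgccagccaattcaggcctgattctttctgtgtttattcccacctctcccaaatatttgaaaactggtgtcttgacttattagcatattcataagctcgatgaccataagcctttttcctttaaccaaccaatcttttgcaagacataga
The half-site began 28 bases before the first start and 9 bases before the second, and was not in the window of the third. On either strand it occurs in 14.0% of the 32851 RefSeq promoter windows of this length. The 7 windows that matched a member (Pparg, Cebpa, Cebpb, Cd36 and Adipoq, 5 of the 8 genes) were also searched on both strands for the STAT motif TTCNNNGAA, held by 7.02% of all windows, and the C/EBP motif TTGCNNCAA, held by 1.74%. Neither set of letters was found in any of the 7. A letter match is a description of the window and not a binding site.

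The C/EBP genes encode basic leucine zipper factors. Cebpa (ENSMUSG00000034957.10, chr7:35119293-35121928, plus strand), which with PPAR-gamma maintains the fat cell state and also acts in granulocyte formation, read 7.88, 8.44 and 7.87 RPM in knockouts, against 7.56, 8.52 and 7.97 RPM in controls. All 6 libraries lay within 1 RPM of each other and the groups overlapped fully. The log2 fold change was 0.01 with a 95% interval of -0.30 to 0.31 (limma adjusted p = 0.979). Cebpb (ENSMUSG00000056501.3, chr2:167688915-167690418, plus strand), an early inducer of adipogenesis and a factor of inflammatory responses, read 16.0, 14.7 and 20.8 RPM in knockouts, against 20.6, 24.9 and 17.5 RPM in controls. Knockout replicate 3 lay above 2 of the 3 controls. The means were 17.2 ± 3.25 RPM in knockouts and 21.0 ± 3.71 RPM in controls (SD, n = 3 each), and the log2 fold change of -0.28 did not pass (95% interval -0.57 to 0.02, limma adjusted p = 0.195).

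Cebpd (ENSMUSG00000071637.5, chr16:15887286-15891031, plus strand), the partner of Cebpb in early adipogenesis, was close to the filter. It had 6, 13 and 11 reads in knockouts (0.508, 1.42 and 1.12 RPM), against 30, 8 and 19 reads in controls (2.58, 0.598 and 1.56 RPM). The 3 controls alone spanned more than the knockouts did, and chi-square over its degrees of freedom was 2.37 among knockouts and 7.96 among controls, where counting noise alone gives about 1. The 95% interval of the log2 fold change ran from -0.87 to 0.26 (limma adjusted p = 0.483), so neither a lower nor a higher level could be told from none with this spread and these reads. On a list of 4 further genes with a C/EBP name or zipper, none of the 3 tested passed. Ddit3, a stress-induced zipper factor that blocks the others, was at a log2 fold change of -0.08, and Cebpz, which shares the name but not the zipper, was at 0.10.

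Cd36 (ENSMUSG00000002944.15, chr5:17781690-17888801, minus strand) encodes the scavenger receptor that takes up long-chain fatty acids. It read 35.5, 37.7 and 39.8 RPM in knockouts, against 46.2, 41.8 and 54.3 RPM in controls. Every knockout sample lay below every control, and the gap between the highest knockout and the lowest control was smaller than the range of the controls. The means were 37.6 ± 2.14 RPM in knockouts and 47.4 ± 6.34 RPM in controls (SD, n = 3 each), 20.6% lower in the knockout, with a log2 fold change of -0.32 ± 0.11 (SE, limma adjusted p = 0.0441). Separate groups were common, at 33.8% of all tested amplicons in either direction and 21.9% with the knockout lower. The same chi-square ratio was 1.31 among knockouts and 10.7 among controls, so the controls spread beyond counting noise.

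The call for Cd36 was close to the threshold and held in 6 of 17 alternative settings, while the direction held in all 17. With TMM scaling the adjusted p was 0.0918, with edgeR on recovered reads 0.0882 and with DESeq2 0.135. It was also lost without knockout replicate 1 (limma adjusted p = 0.122), knockout replicate 2 (0.107), control replicate 1 (0.0866) or control replicate 3 (0.199), and without control replicate 3 the log2 fold change was -0.22. In bulk samples, fewer cells of a type and less RNA per cell cannot be told apart. Markers of 4 cell types known to use Cd36 were read beside it. Over all tested amplicons 11.0% were called lower and 5.71% higher. Summed endothelial markers were at 734 to 770 RPM in knockouts and 745 to 791 RPM in controls, with 2 of 9 tested markers lower. The markers with the highest RPM moved in opposite directions, Pecam1 by 0.21 (not called) and Cdh5 by -0.31 (called) on the log2 scale. Macrophage markers summed to 486 to 523 RPM in knockouts and 386 to 410 RPM in controls, with 4 of 8 higher and 1 lower. Much of this sum is 1 amplicon, Lyz2, at a mean of 230 RPM in knockouts and 134 RPM in controls. The marker called lower was Csf1r (log2 fold change -0.42, limma adjusted p = 0.0108), so the sum does not give a direction for the cell type. Skeletal muscle markers summed to 14108 to 15051 RPM in knockouts and 15729 to 16035 RPM in controls, with 4 of 10 lower. Platelet markers overlapped, at 94.8 to 109 RPM in knockouts and 96.3 to 107 RPM in controls, with 0 of 4 called. The part of these cell types in the lower Cd36 value was not tested.

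The 250 bases before the Cd36 start in RefSeq (GRCm38.p6, minus strand) are shown because Cd36 was the called gene and is a known target of PPAR-gamma in macrophages. Capitals mark the half-site on the reverse strand.
Cd36, chr5:17835897-17836146: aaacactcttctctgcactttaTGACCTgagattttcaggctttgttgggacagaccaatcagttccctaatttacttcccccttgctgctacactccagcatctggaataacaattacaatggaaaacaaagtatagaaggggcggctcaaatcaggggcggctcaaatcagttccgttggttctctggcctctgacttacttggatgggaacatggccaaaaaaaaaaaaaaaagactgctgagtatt
The match began 228 bases before this start, and such a half-site occurs in 14.0% of all windows. GENCODE lists 6 Cd36 transcripts and lets this minus-strand gene run to 17888801, upstream of this window, so at least 1 other start exists.

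**Figure D2:**
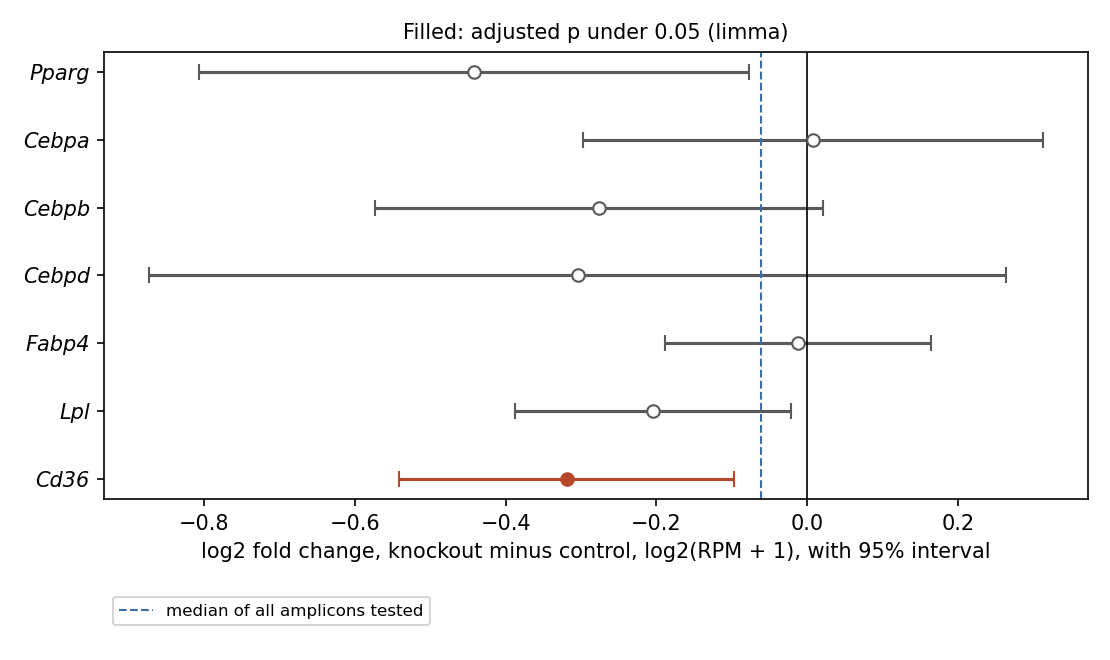
Log2 fold change, knockout minus control, of the 7 tested genes on the log2(RPM + 1) scale, with 95% intervals from limma. The filled red point marks Cd36, the gene past an adjusted p of 0.05, and the dashed line is the median of all tested amplicons, -0.06. The intervals of Pparg and Lpl also lie below 0 before adjustment.

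Lpl (ENSMUSG00000015568.16, chr8:68880491-68907448, plus strand) encodes the lipase that acts on circulating lipoproteins. It read 60.3, 63.1 and 62.6 RPM in knockouts, against 72.9, 73.9 and 67.9 RPM in controls. The groups did not overlap, as was so with the knockout lower in 21.9% of all tested amplicons. The spread within each group was small, with an SD of 1.49 RPM in knockouts and 3.22 RPM in controls. Lpl did not pass, at a log2 fold change of -0.20 ± 0.09 (SE, limma adjusted p = 0.116). It passed in none of 17 alternative settings, with adjusted p from 0.102 to 0.336, and its direction held in all 17. Permuting the 6 samples in an exact two-sided test gave p = 0.1 for Lpl and p = 0.1 for Cd36. This is the smallest p that 3 against 3 can give. Every gene whose groups do not overlap gets it, so it adds nothing to the lack of overlap.

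Fabp4 (ENSMUSG00000062515.3, chr3:10204088-10208576, minus strand) encodes a fatty acid carrier of fat cells, macrophages and capillary endothelium. It read 120, 105 and 117 RPM in knockouts, against 109, 112 and 123 RPM in controls. The groups overlapped, although knockout replicate 2 lay below every control and control replicate 3 above every knockout, with means of 114 ± 7.77 RPM in knockouts and 115 ± 6.98 RPM in controls (SD, n = 3 each). The log2 fold change was -0.01 with a 95% interval of -0.19 to 0.16 (limma adjusted p = 0.945). At 3512 reads in knockouts and 4264 reads in controls it was the most deeply read of the 8 genes. Its sign changed with TMM (0.04), median-of-ratios (0.05) and quantile (0.01) scaling, and the sign of Cebpa changed without knockout replicate 2 or control replicate 1, so neither has a direction here.

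Adipoq (ENSMUSG00000022878.5, chr16:23146536-23158028, plus strand), which encodes the hormone adiponectin, had 7, 2 and 1 reads in knockouts (0.593, 0.219 and 0.102 RPM), against 1, 1 and 5 reads in controls (0.0860, 0.0750 and 0.411 RPM). Knockout replicate 1 and control replicate 3 lay above the floor and the other 4 libraries lay under it. It was below the filter and entered no test, and p was 0.5 by the exact two-sided permutation test. Of 8 adipocyte markers 6 had a mean under 1 RPM, and Lep, the leptin gene, had no read in any library. The other 2 were the lipid droplet coat genes Plin4, with 23, 24 and 32 reads in knockouts and 29, 37 and 24 reads in controls, and Plin1, with 12, 15 and 16 reads in knockouts and 4, 11 and 15 reads in controls, and neither passed. Summed, the 8 stood at 6.79 to 7.36 RPM in knockouts and 4.12 to 5.38 RPM in controls, without overlap. Separate groups were common, at 33.8% of single tested amplicons. The sums rest on few reads and their difference was not tested. Adig, a gene induced in adipogenesis, was picked after its values were seen. It had 15, 9 and 14 reads in knockouts and 3, 8 and 6 reads in controls. It passed when the filter on the mean was dropped (limma adjusted p = 0.0298), where 523 of 20490 amplicons were called higher. Other fat cell genes differed in both directions in that fit without passing. Ucp1 had 0, 4 and 4 reads in knockouts and 8, 14 and 6 reads in controls (log2 fold change -0.45). Cidea was at -0.22. Pck1 had 5, 14 and 5 reads in knockouts and 1, 2 and 2 reads in controls (0.64).

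**Figure D3:**
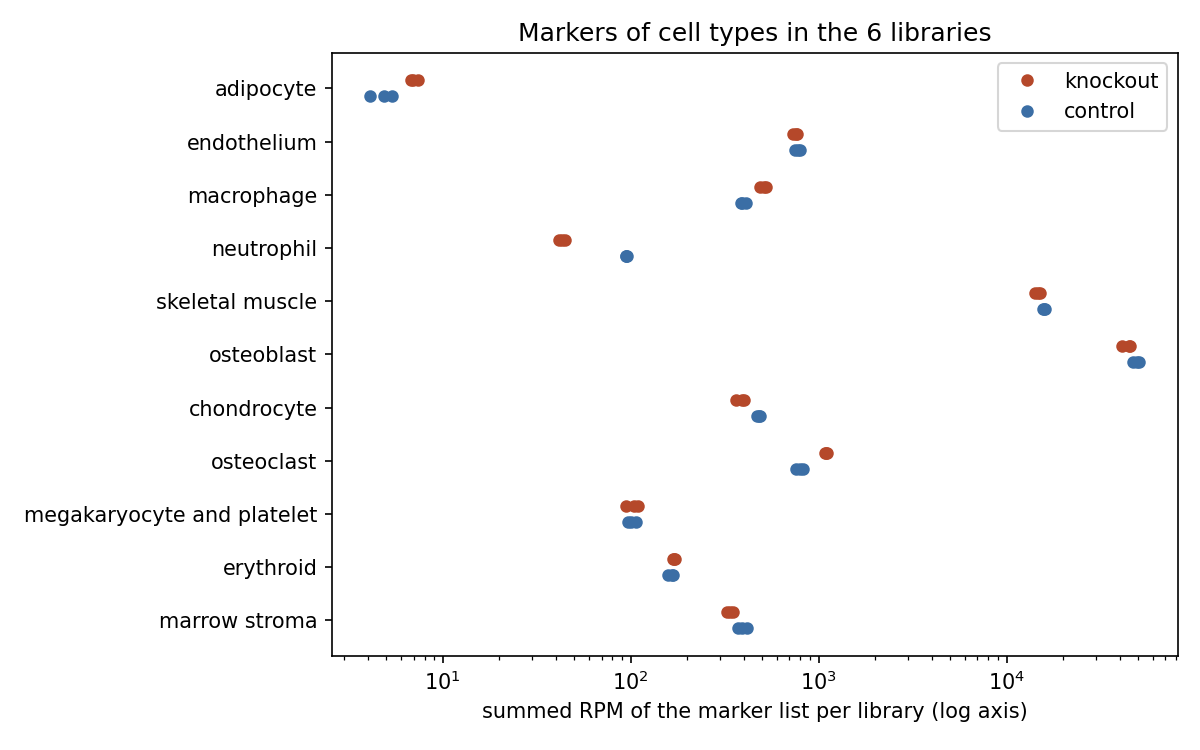
Summed RPM of each cell type's marker list per library on a log axis, with knockout samples in red above controls in blue. Adipocyte markers sum to at most 7.36 RPM in all 6 libraries. The groups overlap for endothelium, platelets and erythroid cells and are apart for the other lists.

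A further 8 lists of genes from these processes were read in the same test, where 11.0% of all amplicons were called lower and 5.71% higher. Shares of small lists near these are not results about the lists. Of the PPAR partners and coactivators, 2 of 12 fell and none rose, near the background. These were the nuclear receptor coactivators Ncoa1, at 17.4 ± 1.14 RPM in knockouts and 24.4 ± 2.05 RPM in controls, and Ncoa2, at 39.5 ± 2.88 RPM in knockouts and 52.7 ± 6.96 RPM in controls (SD, n = 3 each). Both calls were lost without control replicate 1, and that of Ncoa2 also without knockout replicate 1 or control replicate 2. Ppargc1a, a PPAR coactivator gene picked after its values were seen, was called higher with quantile scaling (0.41, limma adjusted p = 0.0386) and with edgeR (0.40, adjusted p = 0.0459). Of genes that promote adipogenesis, 3 of 17 fell and none rose, against 11.0% of all amplicons lower. They were the zinc finger factors Klf4 (log2 fold change -0.46) and Klf5 (-0.45) and the early B-cell factor gene Ebf1 (-0.40), with limma adjusted p of 0.00332, 0.0243 and 0.0111. Klf4 was called in all 17 alternative settings. Klf5 was lost without knockout replicate 1 or control replicate 2 and with quantile scaling, and Ebf1 without knockout replicate 2 or control replicate 1. Of 12 tested genes on the list of inhibitors of adipogenesis 2 fell and 1 rose. Klf3 (-0.30) and the cartilage factor gene Sox9 (-0.39) fell, but neither passed under any of 3 other scalings. Klf3 passed in no fit that left out 1 library, and Sox9 was lost without knockout replicate 1, knockout replicate 2, control replicate 1 or control replicate 2. Id2, listed here as an inhibitor of basic helix-loop-helix factors, rose (0.42) with overlapping groups, and was lost without knockout replicate 2 or control replicate 2. Its place on this list does not settle whether it holds back or promotes fat cell formation. Markers of other cell types moved as well. Of osteoblast markers 7 of 9 tested fell, and of chondrocyte markers 5 of 8. Of marrow stroma markers, whose cells include fat cell precursors, 3 of 7 fell, with sums of 325 to 349 RPM in knockouts and 371 to 414 RPM in controls. Of neutrophil markers 5 of 6 fell, with sums of 41.6 to 44.7 RPM in knockouts and 94.2 to 95.1 RPM in controls. The part of these cell types in the counts, and in the C/EBP values, was not tested.

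In the list of lipid synthesis, storage and release, 4 of 19 fell and none rose, against 11.0% of all amplicons lower and 5.71% higher. The fatty acid synthase gene Fasn read 47.0, 42.7 and 42.8 RPM in knockouts, against 63.3, 64.7 and 60.3 RPM in controls (log2 fold change -0.50, limma adjusted p = 9.73e-04). The desaturase genes Scd2 (-0.51, limma adjusted p = 9.84e-04) and Scd1 (-0.46, 0.00956) fell as well, as did Bscl2 (-0.46, 0.00631), which encodes the lipid droplet protein seipin. Fasn passed in all 17 alternative settings, Scd2 and Bscl2 in 16 each, and Scd1 in 16, being lost without control replicate 1. In these 4 genes every knockout sample lay below every control, as in 21.9% of all tested amplicons. They were named because they were called, so this adds no support. With other scalings 2 or 3 genes of the list were called higher, among Lpin1, Dgat2 and Plin2, which were picked after their values were seen, and the lower count stayed at 4.

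Among fatty acid uptake and transport genes, 2 of 13 tested rose and none fell, against 5.71% of all amplicons higher. The fatty acid transporter gene Slc27a1 read 36.8, 35.6 and 28.1 RPM in knockouts, against 21.2, 22.1 and 23.0 RPM in controls (log2 fold change 0.57, limma adjusted p = 0.00219, called in all 17 alternatives). Cav1, a caveolar coat gene, rose by 0.29 on the log2 scale, and this call was lost without knockout replicate 3, control replicate 1 or control replicate 2. In lipoprotein lipolysis 2 of 12 tested fell and none rose, near the background. They were Angptl4, which encodes an inhibitor of lipoprotein lipase, at 19.2 ± 2.44 RPM in knockouts and 26.4 ± 0.944 RPM in controls, and Lmf2, a relative of the lipase maturation factor gene, at 49.2 ± 4.65 RPM in knockouts and 69.5 ± 3.99 RPM in controls (SD, n = 3 each). Angptl4 was lost without knockout replicate 1 and with quantile scaling. Of 7 tested genes of mature fat cells none passed, and those with the highest RPM, Car3 (log2 fold change 0.02) and Slc2a4 (0.19), are also muscle genes, though RPM does not rank amplicons by transcript number. The median log2 fold change was -0.15 for lipid synthesis, -0.14 for lipolysis and 0.02 for uptake, against -0.06 for all tested amplicons.

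**Figure D4:**
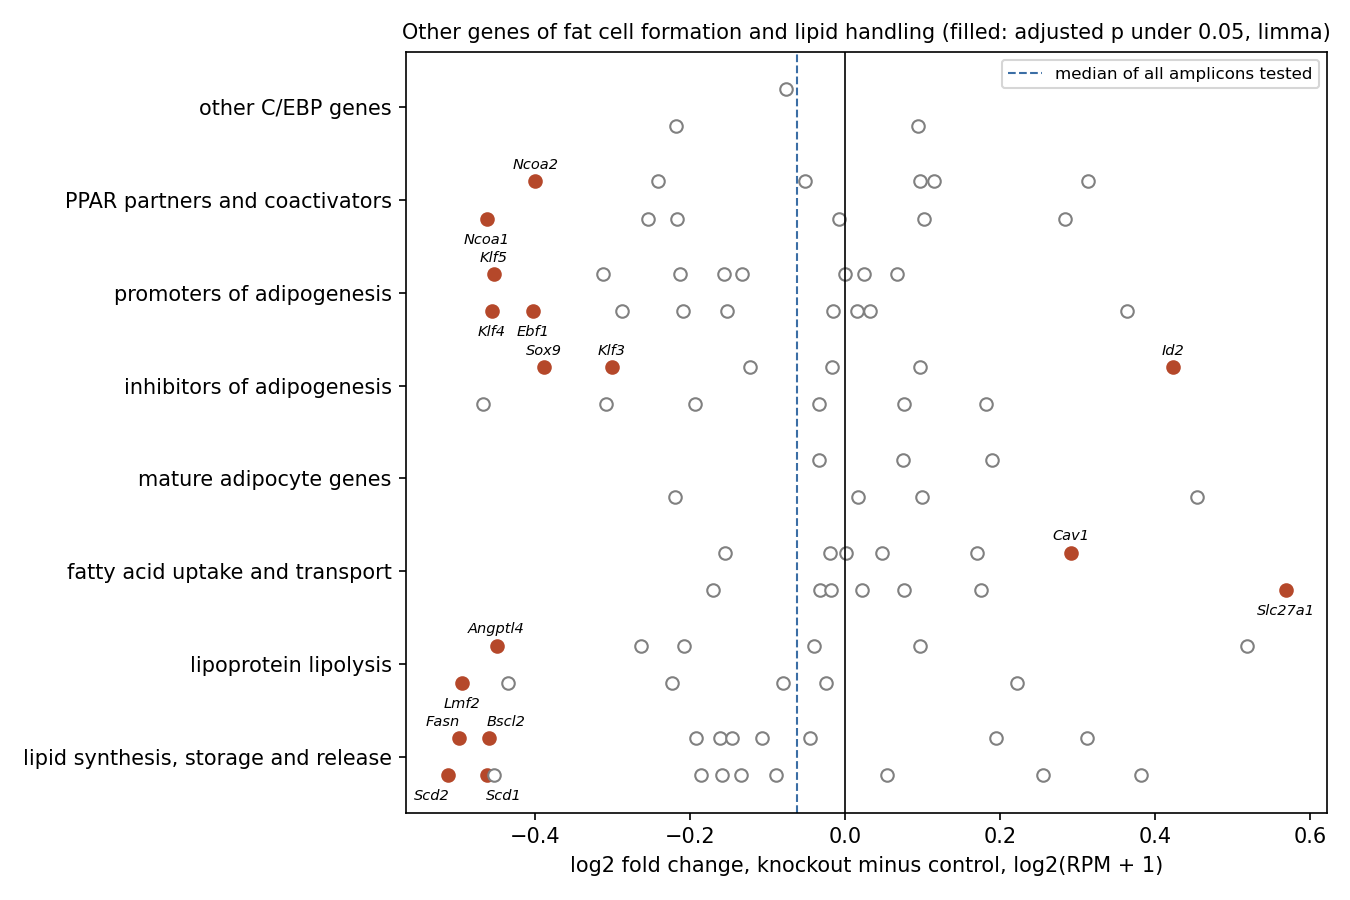
Log2 fold change, knockout minus control, of the tested genes of 8 lists on the log2(RPM + 1) scale, 1 point per gene. Filled and named points passed an adjusted p of 0.05, and the dashed line is the median of all tested amplicons. Calls in synthesis, lipolysis, coactivators and promoters of adipogenesis lie left of 0, those in uptake right of 0, and those in inhibitors on both sides.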

How the data were processed

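The authors deposited RPM values, reads scaled to a library total of 1000000, for 23930 amplicons in 6 libraries made with the Ion AmpliSeq mouse transcriptome panel, per the labels' protocols. The sources used here do not name the aligner, counter or genome build. Every value above 0 was a whole multiple of 1 read (100% within a tolerance of 0.1 read), which gave back reads and depths. Intervals and floors from reads cover counting error only.

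Amplicons averaging 1 RPM or more were compared with limma 3.58.1 in R 4.3.3 on log2(RPM + 1), with a variance trend and no covariate. This scale understates changes of low genes. The 17 alternatives covered pseudocount, filter, scaling, variance model, a replicate block, each library left out, and edgeR 4.0.16 and DESeq2 1.42.0 on recovered reads. Scripts were tested on simulated data. Members and lists were chosen with earlier results of these data known. The genes named were the 8, Stat3, and from each list up to 4 called genes, or the 2 with the highest RPM where fewer than 2 were called. Markers were named by highest RPM. Adig, Ucp1, Cidea, Pck1, Lep, Csf1r, Ppargc1a, Lpin1, Dgat2, Plin2, Dlk1, Gata2 and Gpihbp1 are outside this rule and were picked after their values were seen. List members Fabp3, Fabp5, Got2, Olr1, Apoc2 and Bglap matched no amplicon by symbol and were not analysed here. Gene positions come from GENCODE M21 and promoters from RefSeq.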

Additional observations from a re-analysis of the deposited data

How the results depend on the processing

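Of the genes at few reads, with 3 samples a group, Cebpd was tested but did not pass, and Adipoq was below the filter. Cd36 kept its direction in all 17 alternatives and its call in 6, with adjusted p from 0.0286 to 0.199. It was not called without the filter (-0.32, adjusted p = 0.0900), with TMM (-0.27), median-of-ratios (-0.26) or quantile scaling (-0.26), without the variance trend (-0.32), or with edgeR (-0.28) or DESeq2 (-0.27) on recovered reads, and in each of these 0 of the 8 genes were called. Leaving out 1 library gave -0.40 to -0.22 for Cd36, -0.60 to -0.29 for Pparg and 0 to 1 genes called. The Adipoq difference was 0.13, and 0.47 with a pseudocount of 0.1 RPM. Over all amplicons 733 were higher and 1409 lower. The lower count was 869 without the filter, 895 with median-of-ratios, 877 with quantile, 922 with edgeR and 775 with DESeq2. Without the variance trend 361 were higher and 634 lower, and leaving out 1 library gave 444 to 705 higher and 729 to 1314 lower. The higher share of calls was 34.2% as deposited, 50.4% with TMM, 54.3% with median-of-ratios, 52.7% with quantile, 53.3% with edgeR and 56.3% with DESeq2. Among list genes, calls were also lost without the variance trend for Ncoa2, Ebf1, Klf5, Klf3, Id2, Cav1, Scd2 and Bscl2, without the filter for Klf5, Klf3, Sox9, Id2 and Cav1, with edgeR for Klf3 and Sox9, and with DESeq2 for Klf5, Klf3 and Sox9. The cause was not tested. Sample titles give same-numbered samples of the groups a shared number and no stated pairing. Correlations of their deviations were 0.0126, -0.0193 and 0.107, against -0.0983 to 0.0979 for pairs with different numbers. These values do not settle whether same-numbered samples share more than a number. With the replicate block 836 were higher, 1626 lower and 1 of the 8 genes, Cd36, was called.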

Other observations

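Further genes were picked after their values were seen, for their known ties to the 8. Dlk1, which encodes a preadipocyte protein that holds back adipogenesis, read 5442, 5159 and 5035 RPM in knockouts, against 4282, 4490 and 5028 RPM in controls. The groups touched without overlapping, and the log2 fold change of 0.18 did not pass (limma adjusted p = 0.0913). It passed with median-of-ratios scaling (limma adjusted p = 0.0401) and without control replicate 3 (limma adjusted p = 0.0296). It also passed with edgeR (adjusted p = 0.0246) and DESeq2 (adjusted p = 0.0302) on recovered reads. Gata2, on the same list of inhibitors, went the other way, with overlapping groups (-0.47, limma adjusted p = 0.0841). It read 10.3, 5.48 and 5.93 RPM in knockouts, against 11.7, 8.90 and 9.69 RPM in controls. Gata2 passed with the replicate block (limma adjusted p = 0.0365) and without knockout replicate 1 (limma adjusted p = 0.00904). Gpihbp1, which anchors lipoprotein lipase to capillaries, was at 66.2 ± 4.09 RPM in knockouts and 67.6 ± 8.62 RPM in controls (SD, n = 3 each), with overlapping groups (limma adjusted p = 0.901). Plin2, a lipid droplet coat gene of many cell types, read 116, 116 and 113 RPM in knockouts, against 97.8, 99.4 and 105 RPM in controls, and did not pass (limma adjusted p = 0.101). It passed with TMM (limma adjusted p = 0.0481) and median-of-ratios scaling (limma adjusted p = 0.0391), with edgeR (adjusted p = 0.0459) and with DESeq2 (adjusted p = 0.0257).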
